A study of Mus musculus with 24 samples.

Results

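The nuclear genes of oxidative phosphorylation were followed in lung RNA of 24 mice. They were taken as every row of the expression table annotated protein_coding whose symbol starts with Nduf, Sdha to Sdhd, Uqcr, Cox4i, Cox5, Cox6, Cox7, Cox8 or Atp5, without the heart forms Cox6a2, Cox7a1 and Cox8b. This rule took 94 of 23891 genes. Of these, 82 were counted as genes of subunits, namely 37 of complex I, 4 of complex II, 8 of complex III, 16 of complex IV and 17 of complex V. The other 12 are assembly factors of complex I (Ndufaf genes) and complex II (Sdhaf genes), which the prefixes also take and which were described apart. Ndufa4 and its paralog Ndufa4l2 were counted with complex IV, where the NDUFA4 protein resides. Cox5b-ps and Ndufb1-ps, rows whose symbols mark them as pseudogenes, were annotated protein_coding in the table and were kept with complexes IV and I. GENCODE lists Ndufb1-ps as a long non-coding RNA.

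Oxidative phosphorylation makes most of the ATP of resting cells in the inner mitochondrial membrane. Complexes I and II take electrons from NADH and succinate, complex III passes them to cytochrome c, complex IV passes them on to oxygen, and complex V, the ATP synthase, uses the proton gradient that complexes I, III and IV build. The mitochondrial genome encodes a few core subunits of complexes I, III, IV and V, and all other subunits come from the nucleus. Some subunits of complex IV have tissue forms, of which COX4I2 and NDUFA4L2 are known for their link to low oxygen, and COX4I2 for its high level in lung.

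The mice were C57BL/6, and RNA came from the left lobe of the lung. Naïve adult mice (n = 5) were 20 wk old and naïve aged mice (n = 5) were 80 wk old, and both groups had received saline. The HDM group (n = 7) and the HDM + Dex group (n = 7) were also 80 wk old and had received house-dust mite extract (HDM), an allergen, at 50 µg per dose, with lungs taken 24 h after the last dose by the study's protocol. The HDM + Dex mice were also injected every 72 h with 4 mg/kg of dexamethasone (Dex), a drug that acts on the glucocorticoid receptor. No adult mice with HDM were analysed here. The naïve aged group is called saline below. Each library came from 1 mouse as far as the labels tell, so that p-values measure the spread between these samples.

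The libraries held an estimated 10.03 to 33.03 M reads on genes. Markers of type 2 alveolar cells, the surfactant-making cells of lung, were high in all 24 libraries (summed level of 6 genes from 3976 to 11069 CPM). 7SL RNA belongs to the particle that guides secreted proteins to the endoplasmic reticulum. It took 9.92% to 42.0% of the deposited CPM, which were taken as read counts scaled to a fixed total per library. Its share exceeded 25% in naïve adult replicate 1, in HDM replicates 1 to 5 and in HDM + Dex replicates 1, 2, 3 and 6, and in none of the 5 saline libraries. A higher 7SL share lowers all other CPM, and every level below is a CPM divided by a median-of-ratios factor (rescaled CPM) unless it is called deposited. Xist was higher than Ddx3y, the pattern of females, in all 5 naïve adult, 2 saline, 2 HDM (replicates 6 and 7) and 4 HDM + Dex libraries (replicates 4 to 7). Naïve adult replicate 5 stood apart with 546 rescaled CPM of 7 skeletal muscle markers, against 4.74 to 11.7 in the other naïve adult libraries, and with the highest summed level of the 94 genes in any library, 3716 rescaled CPM.

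Promoters of these genes are known to bind NRF1, the ETS factor GABP and YY1. RefSeq promoters of 300 bases, from 250 bases before to 50 after a start (GRCm38.p6), matched 78 of the 94 genes. The letters CGCATGCG, the core of the palindromic NRF1 site, lay in 11 of the 78 (14.1%) and in 2.07% of 27025 genes of the same table. CCGGAAG on either strand, an ETS site, lay in 22 of the 78 (28.2%) and in 9.93% of all genes. AAGATGGC on either strand, a YY1 site, lay in 11 of the 78 (14.1%) and in 3.19% of all genes. CCAAT on either strand, a general promoter element, lay in 33 of the 78 (42.3%) and in 41.1% of all genes. A match is a description of letters only. Of the 9 genes that rose after HDM, 7 had a promoter in the table, of which 3 held the ETS letters and the other 4 (Cox5b, Cox7a2l, Ndufa13 and Uqcrfs1) none of the NRF1, ETS or YY1 letters. The first 3 promoters below are those 3 with the ETS letters, the fourth holds both the NRF1 and the ETS letters, and the fifth holds the YY1 letters. Capitals mark these matches, and each sequence runs 5′ to 3′ on the strand of the gene.
Cox8a (chr19:7217567-7217866, minus strand): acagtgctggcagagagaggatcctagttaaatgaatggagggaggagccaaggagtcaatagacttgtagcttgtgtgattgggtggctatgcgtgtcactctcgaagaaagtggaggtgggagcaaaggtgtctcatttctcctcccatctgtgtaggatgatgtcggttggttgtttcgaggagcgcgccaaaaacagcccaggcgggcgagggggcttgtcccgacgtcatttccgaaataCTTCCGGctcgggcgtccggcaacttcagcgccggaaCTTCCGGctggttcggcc
Uqcrh (chr4:116075021-116075320, minus strand): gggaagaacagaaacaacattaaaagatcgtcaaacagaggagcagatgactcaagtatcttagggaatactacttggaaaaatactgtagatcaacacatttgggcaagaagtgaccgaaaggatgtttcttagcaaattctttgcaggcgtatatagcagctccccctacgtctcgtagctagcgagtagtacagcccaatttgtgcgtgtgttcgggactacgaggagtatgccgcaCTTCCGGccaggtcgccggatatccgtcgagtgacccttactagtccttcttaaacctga
Atp5e (chr2:174464052-174464351, minus strand): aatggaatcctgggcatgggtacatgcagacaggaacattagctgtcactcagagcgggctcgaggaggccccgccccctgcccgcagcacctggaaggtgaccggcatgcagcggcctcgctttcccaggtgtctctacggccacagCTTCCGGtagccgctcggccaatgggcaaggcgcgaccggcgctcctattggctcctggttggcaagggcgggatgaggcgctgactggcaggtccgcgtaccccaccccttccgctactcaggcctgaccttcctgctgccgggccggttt
Cox6a1 (chr5:115348909-115349208, minus strand): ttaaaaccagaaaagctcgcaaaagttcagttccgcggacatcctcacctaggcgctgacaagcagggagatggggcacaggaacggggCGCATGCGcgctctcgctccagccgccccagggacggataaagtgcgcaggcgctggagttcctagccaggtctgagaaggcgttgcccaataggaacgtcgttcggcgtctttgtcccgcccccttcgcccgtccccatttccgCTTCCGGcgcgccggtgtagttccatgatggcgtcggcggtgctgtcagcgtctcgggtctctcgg
Ndufb8 (chr19:44555393-44555692, minus strand): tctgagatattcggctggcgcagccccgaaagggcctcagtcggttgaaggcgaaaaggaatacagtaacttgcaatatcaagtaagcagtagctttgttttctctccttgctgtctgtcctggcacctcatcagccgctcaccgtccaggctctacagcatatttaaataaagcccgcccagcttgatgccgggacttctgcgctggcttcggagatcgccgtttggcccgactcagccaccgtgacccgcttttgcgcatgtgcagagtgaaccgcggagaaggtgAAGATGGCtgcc

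A second sequence feature bears on complex IV. Cox5b encodes a peripheral subunit of complex IV on the matrix side, and Cox5b-ps is a copy of its coding sequence on another chromosome. The 390 bases of the Cox5b-ps transcript (Gm11273 in GENCODE, chromosome 13) were identical to the Cox5b transcript (chromosome 1) at 387 positions, or 99.2%. The stretch from base 136 to base 255 of Cox5b-ps holds 2 of the 3 differences, which are in capitals.
Cox5b-ps: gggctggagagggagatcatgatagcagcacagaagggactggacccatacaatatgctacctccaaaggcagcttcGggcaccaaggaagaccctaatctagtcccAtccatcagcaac
Cox5b: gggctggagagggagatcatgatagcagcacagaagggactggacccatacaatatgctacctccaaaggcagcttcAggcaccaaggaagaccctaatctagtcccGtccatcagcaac
Of the 50-base windows of the Cox5b-ps transcript, 61.9% also occur in transcripts of Cox5b, so that reads of this length can belong to either. The sum of both rows was 55.0 ± 11.6 rescaled CPM (SD, n = 5) in saline, 101 ± 26.8 (SD, n = 7) after HDM and 77.4 ± 21.97 (SD, n = 7) after HDM + Dex. Cox5b-ps made up 22.95% ± 4.35 of that sum in saline and 28.5% ± 3.18 after HDM.

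Levels per length differed widely between subunits. Divided by exonic length, the mean over the 24 libraries was highest for Cox6c, Cox4i1, Atp5h, Atp5b and Atp5a1, at 137, 112, 104, 90.9 and 82.8 rescaled CPM per kb. Cox6c and Cox4i1 encode nuclear subunits of complex IV, and Atp5a1 and Atp5b encode the α and β subunits of the catalytic F1 head of complex V. Atp5g1, one of the genes for the c ring of complex V, was lowest at 0.763 rescaled CPM per kb, while Atp5g3 for the same ring had 28.6. A copy of Atp5g1, Gm10039, had 6.996 rescaled CPM on average against 3.75 for Atp5g1, so that its low level is uncertain. The median over subunits was 18.7 rescaled CPM per kb in complex I, 19.6 in complex II, 29.8 in complex III, 27.6 in complex IV and 41.0 in complex V. The assembly factors had a median of 3.23 and a highest level of 11.6 rescaled CPM per kb, and 62 of the 79 subunits with a known length lay above that highest level. Atp5a1 also had the highest level not divided by length, 240 rescaled CPM, and Atp5g2 the lowest, 0.760 rescaled CPM. Atp5g2 was the only one of the 94 genes that did not reach the mean of 1 deposited CPM needed for a test.

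The summed level of each complex was compared by sample. All 94 genes together had 2527 to 2699 rescaled CPM in the 5 saline libraries, 2669 to 3401 in the 7 HDM libraries and 2469 to 3495 in the 7 HDM + Dex libraries. The lowest HDM library, replicate 2, lay inside the range of saline, and the other 6 HDM libraries lay above it. The HDM + Dex libraries spread below and above saline. Complex IV had 477 ± 30.9 rescaled CPM (SD, n = 5) in saline and 612 ± 84.9 (SD, n = 7) after HDM, and complex V had 818 ± 23.4 and 954 ± 109. The assembly factors had 83.8 ± 6.73 in saline and 82.5 ± 3.51 after HDM.

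**Figure D1:**
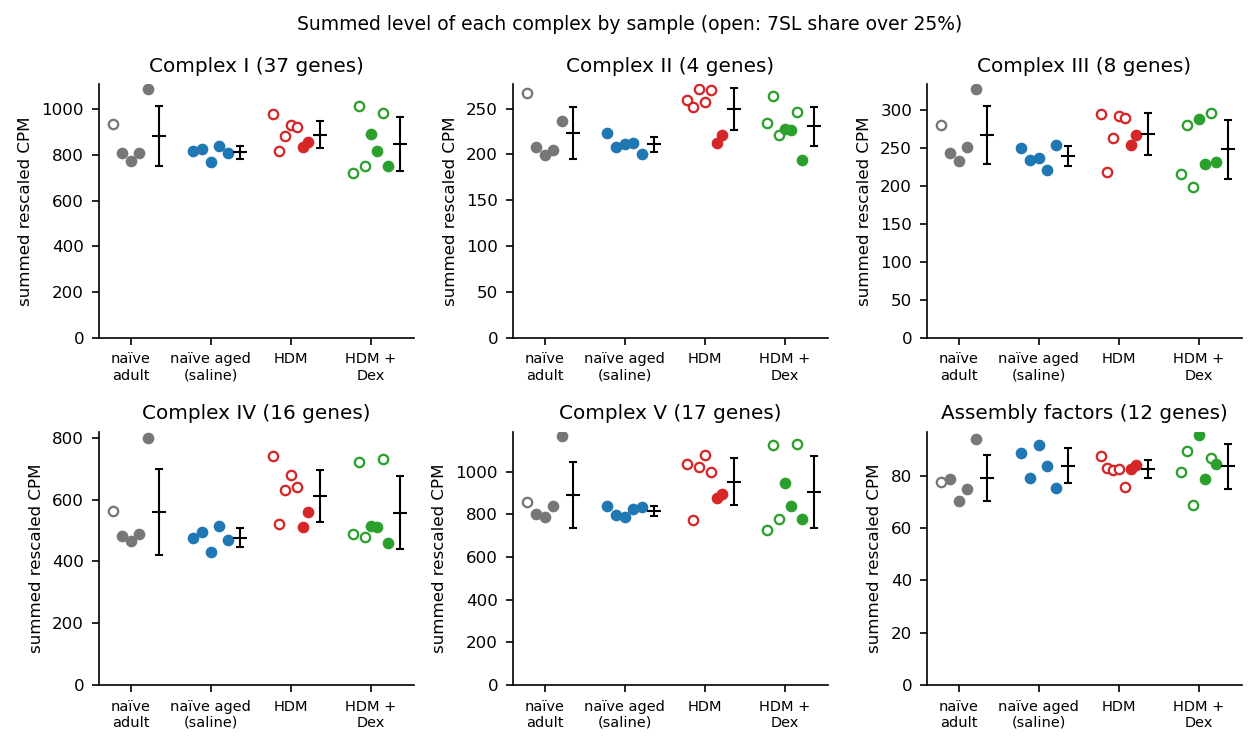
Each panel plots the summed level of the genes of 1 complex, in rescaled CPM, for every library of the 4 groups. Points are libraries (open where the 7SL share exceeded 25%), and the bar beside them gives the mean ± SD. For all 94 genes together, saline libraries lie between 2527 and 2699, HDM libraries between 2669 and 3401 and HDM + Dex libraries between 2469 and 3495 rescaled CPM. In the assembly factors all HDM libraries lie within the range of saline.

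HDM vs. saline asks how allergen challenge changed the aged lung. Of the 93 genes tested, 9 rose (9.68%) and 0 fell at an adjusted p under 0.05 from limma. Over all 17744 genes tested, 10.7% rose and 11.8% fell, so the share that rose was near the background. At an unadjusted p under 0.05, 19 of the 93 were higher and 2 were lower, beside 17.2% and 19% of all genes. The median log2 fold change on the log2(rescaled CPM + 1) scale, which understates changes of low genes, was 0.11 over the 93 genes and −0.02 over all genes. It was 0.09 in complex I, 0.15 in complex II, 0.17 in complex III, 0.21 in complex IV, 0.12 in complex V and 0.03 in the assembly factors. Protein-coding genes under 1000 bases of exonic length, as are 43 of the 90 tested genes with a length here, had a median of 0.07. On the deposited CPM scale the median over the 93 genes was −0.12, beside −0.23 over all genes, and 3 rose (Sdhc, Cox5b and Cox5b-ps, where 4.04% of all genes rose) and 1 fell (Ndufb2, where 21.2% of all genes fell). The direction of the median therefore depended on the scaling, and under both scalings it lay above the median of all genes.

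**Figure D2:**
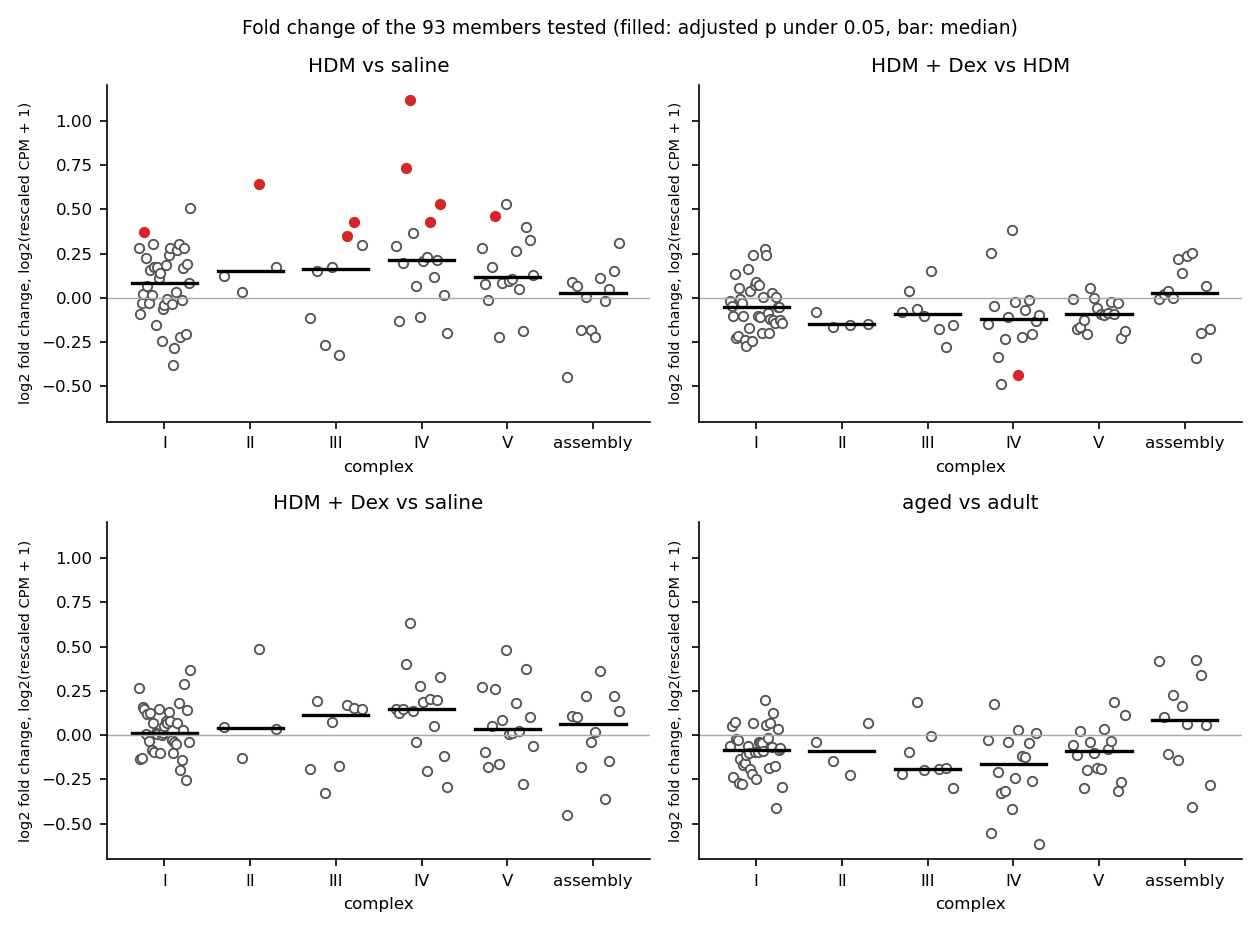
Each panel plots the log2 fold change of the 93 genes tested in 1 comparison, on the log2(rescaled CPM + 1) scale, by complex. Filled points passed an adjusted p under 0.05 from limma and bars are medians. In HDM vs. saline 9 points are filled, all above 0 and 4 of them in complex IV, in HDM + Dex vs. HDM 1 point is filled, and in the other comparisons none is.

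In complex II 1 of the 4 genes rose. Its summed level after HDM overlapped that of saline in replicates 6 and 7. Sdhc, on chromosome 1 from 171127165 to 171150604, encodes a membrane anchor of succinate dehydrogenase. Its rescaled CPM were 33.5, 37.7, 37.3, 35.9 and 36.2 in the saline libraries and ran from 43.9 over a median of 53.4 to 81.0 after HDM. The groups did not overlap, and the highest value was that of HDM replicate 3. Its log2 fold change was 0.64 (SE 0.16, adjusted p = 0.007), and 0.16 (adjusted p = 0.386) with the 7SL share as a covariate. The catalytic subunits did not pass the test, with 0.12 (adjusted p = 0.317) for Sdha, the flavoprotein, and 0.04 (adjusted p = 0.885) for Sdhb, the iron-sulfur subunit. Rnu3b3, Cmc2 and Rnu3b4 were the genes most like Sdhc in log2 level over the 24 libraries (Pearson's r of at least 0.943), named after their values were seen. Rnu3b3 and Rnu3b4 are genes of U3 small nucleolar RNA.

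Complex III had 2 genes that rose. Uqcrh, the hinge subunit, on chromosome 4 from 116066965 to 116075072, had 34.7, 34.8, 34.2, 31.9 and 36.7 rescaled CPM in saline and 41.4 to 55.2, with a median of 45.1, after HDM. All 7 HDM libraries lay above all saline libraries, and the log2 fold change was 0.43 (SE 0.10, adjusted p = 0.00468). Uqcrfs1, the Rieske iron-sulfur protein, had 25.7 to 33.2 in saline and 30.4 to 45.4 after HDM, with some overlap (log2 fold change 0.35, SE 0.12, adjusted p = 0.0373). Uqcrc1, a core subunit, had a log2 fold change of 0.18 and did not pass (adjusted p = 0.341).

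Of the genes counted with complex IV by their symbols, 4 were among the 9, and 2 of these are Cox5b and its near copy Cox5b-ps. Cox5b had 34.9, 54.4, 30.5, 46.8 and 45.8 rescaled CPM in saline and 50.9 to 96.9, with a median of 66.0, after HDM, so that 1 HDM library overlapped the saline range (log2 fold change 0.73, SE 0.19, adjusted p = 0.00989). Its near copy Cox5b-ps had 11.1, 17.9, 12.1, 9.54 and 11.9 in saline and 20.3 to 53.0, with a median of 25.0, after HDM, without overlap (log2 fold change 1.12, SE 0.21, adjusted p = 0.00139). Since reads can belong to either of these 2 rows, they may not be independent measurements. Cox8a, a small subunit of the membrane part, had 22.3, 33.0, 19.4, 26.5 and 27.8 in saline and 28.6 to 46.1, with a median of 39.1, after HDM (log2 fold change 0.53, SE 0.15, adjusted p = 0.0151). Cox7a2l, a paralog of Cox7a2, had 62.8, 58.2, 57.6, 59.7 and 51.0 in saline and 51.7 to 94.6, with a median of 81.6, after HDM (log2 fold change 0.43, SE 0.11, adjusted p = 0.00988). Only HDM replicate 6 lay within the saline range of Cox7a2l. Cox4i1, a regulatory subunit and the ubiquitous form of subunit 4, had a log2 fold change of 0.29 at an adjusted p of 0.0502, and Cox5a had 0.19 (adjusted p = 0.471).

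Complexes I and V each had 1 gene that rose. Ndufa13, an accessory subunit of complex I also known as GRIM-19, on chromosome 8 from 69894180 to 69902559, had 30.4, 33.4, 32.5, 31.8 and 33.6 rescaled CPM in saline and 38.1 to 48.5, with a median of 40.2, after HDM. The groups did not overlap (log2 fold change 0.37, SE 0.10, adjusted p = 0.0101). Ndufa13 overlaps Yjefn3 and Tssk6 in the annotation, and their reads may not be separable. Atp5e, the ε subunit of the central stalk of complex V, had 16.5, 25.0, 18.3, 25.9 and 24.3 in saline and 20.8 to 42.8, with a median of 26.9, after HDM, with overlap and an adjusted p of 0.0499. Ndufs3, a core subunit of complex I, was also without overlap, with 11.5 to 15.7 in saline and 15.9 to 20.3 after HDM, but did not pass (log2 fold change 0.30, adjusted p = 0.0518). In all, 5 of the 93 genes lay above saline without overlap and 0 below, beside 3.61% and 4.2% of all genes. Of the fixed core subunits, Ndufs1 and Ndufv1 of complex I had log2 fold changes of 0.03 (95% interval −0.18 to 0.25) and 0.19, and Atp5a1 and Atp5b of complex V had 0.28 (adjusted p = 0.0699) and 0.08 (adjusted p = 0.697). None of the 12 assembly factors passed, and 0 of them had an unadjusted p under 0.05.

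**Figure D3:**
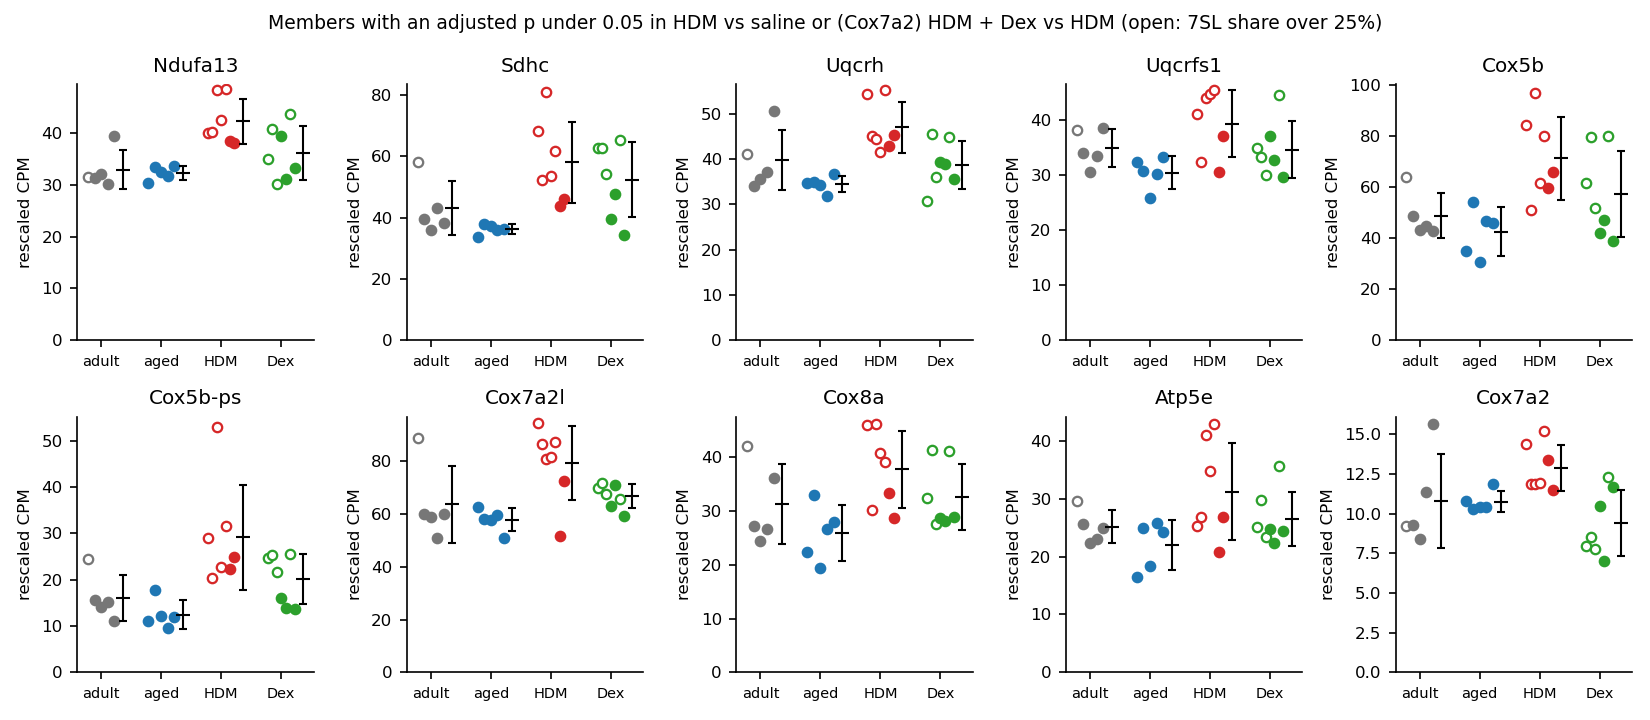
Rescaled CPM of the 9 genes that rose in HDM vs. saline and of Cox7a2, which fell in HDM + Dex vs. HDM, for every library (adult, naïve adult; aged, saline; Dex, HDM + Dex). Open points have a 7SL share over 25% and bars give the mean ± SD. In Sdhc and Ndufa13 the filled HDM points, replicates 6 and 7, are the lowest of their group. These libraries are also the only ones of the HDM group with the female pattern. Sdhc, Uqcrh, Ndufa13 and Cox5b-ps show no overlap between saline and HDM.

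Other measures of the libraries moved with the same comparison. The 7SL share was 12.2% in saline and 25.5% after HDM on average (two-sided exact permutation test, adjusted p = 0.0339 over 64 tests). With the 7SL share as a covariate, 0 of the 93 genes passed, while 660 genes of the table rose and 529 fell. The log2 fold change was then 0.40 for Uqcrh (0.43 without it) and 0.27 for Ndufa13 (0.37). It was 0.60 for Cox5b-ps (1.12), 0.28 for Cox5b (0.73), 0.22 for Cox8a (0.53) and 0.22 for Cox7a2l (0.43). Sdhc had 0.16 (0.64), Uqcrfs1 0.20 (0.35) and Atp5e 0.18 (0.46). Among libraries with a share under 25%, 5 saline and 2 HDM libraries, 1 gene passed, Cox5b-ps (log2 fold change 0.89, adjusted p = 0.0238), and 713 genes of the table rose and 506 fell. There Cox5b, Uqcrh, Sdhc, Cox8a and Ndufa13 had log2 fold changes of 0.58, 0.35, 0.31, 0.27 and 0.24 (adjusted p from 0.0918 to 0.385). Uqcrfs1, Atp5e and Cox7a2l had 0.14, 0.12 and 0.08 (adjusted p = 0.585, 0.736 and 0.767). Both HDM libraries of this subset, replicates 6 and 7, had the female pattern, which HDM replicates 1 to 5 did not have. Within the HDM group 7SL share and sex could therefore not be told apart. Heart muscle genes are known in lung from the muscle sleeve of the pulmonary veins, and their source in these libraries was not tested. All 13 of the heart muscle markers tested were lower after HDM. Their sum ran from 581 to 1150 rescaled CPM in saline and from 38.9 to 585 after HDM (exact permutation test, adjusted p = 0.0339), and among the left-out heart forms Cox8b fell (log2 fold change −0.95, adjusted p = 0.0085), as did Cox6a2 (−1.06, adjusted p = 0.049). With the heart muscle level as a covariate, 0 of the 93 genes passed, while 21 genes of the table rose and 3 fell. The log2 fold changes were then 0.59 for Uqcrh, 0.50 for Cox7a2l, 0.41 for Ndufa13 and 0.34 for Uqcrfs1, and 0.90, 0.55, 0.55, 0.40 and 0.39 for Cox5b-ps, Cox5b, Sdhc, Cox8a and Atp5e (adjusted p from 0.13 to 0.559 over the 9). Of other markers, 3 of 3 of club cells and 5 of 6 of ciliated cells fell, and 4 of 6 of macrophages and 3 of 5 of fibroblasts rose. Over all genes, 11.8% fell and 10.7% rose. The macrophage markers summed to 2213 rescaled CPM in saline and 2389 after HDM on average (exact permutation test, adjusted p = 0.895). Those of fibroblasts summed to 737 and 1637 (adjusted p = 0.0323 by the same test). Skeletal muscle markers summed to 7.27 in saline and 1.98 after HDM (adjusted p = 0.0323 by the same test). Adipose markers summed to 12.5 and 3.22 (adjusted p = 0.0339 by the same test). The part of these measures in the changes of the 9 genes was not tested, and in bulk RNA fewer cells of a type and less RNA per cell cannot be told apart. With sex, read from Xist and Ddx3y, as a covariate, 8 of the 9 passed (Atp5e, adjusted p = 0.0567), and 2009 of all genes rose and 2103 fell. Without HDM replicate 2, which had the highest heart muscle level of the HDM group, 16 genes rose, the 9 among them, and over all genes 2266 rose and 2501 fell, against 1896 and 2102 with it.

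**Figure D4:**
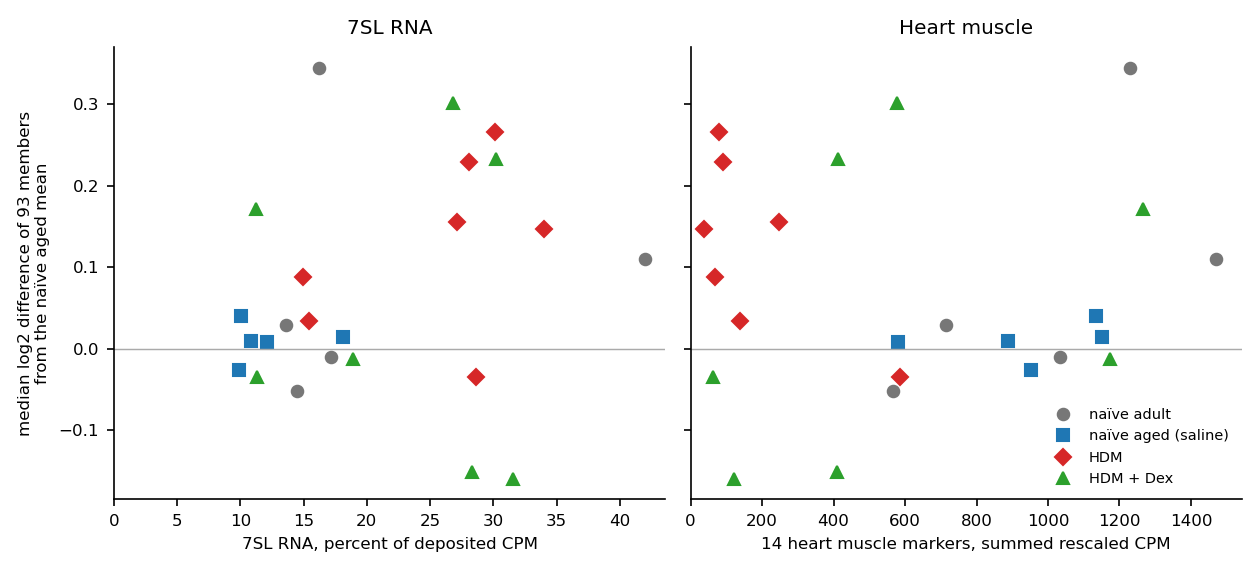
For each library, the median log2 difference of the 93 genes from the saline mean is plotted against the 7SL share (percent of deposited CPM) and against the summed rescaled CPM of 14 heart muscle markers. Saline libraries lie between −0.03 and 0.04, HDM libraries between −0.03 and 0.27 and HDM + Dex libraries between −0.16 and 0.30. HDM + Dex libraries with a 7SL share over 25% lie at both ends.

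HDM + Dex vs. HDM asks what Dex changed in challenged aged lungs. Of the 93 genes tested, 1 fell and 0 rose, while 0.755% of all genes fell and 2.02% rose. At an unadjusted p under 0.05, 8 were lower and 3 were higher, beside 8.7% and 9.78% of all genes. The gene was Cox7a2, the liver-type and widely expressed form of subunit 7a of complex IV, whose heart form Cox7a1 was left out by the rule. It had 11.5 to 15.2 rescaled CPM, with a median of 11.97, after HDM and 7.03 to 12.3, with a median of 8.55, after HDM + Dex. The groups overlapped (log2 fold change −0.43, SE 0.12, adjusted p = 0.0486). Cox7a2 had 10.8, 10.3, 10.4, 10.4 and 11.9 in saline, with a mean between those of both groups, and did not pass in either comparison with saline. The call was lost on the deposited CPM (log2 fold change −0.40, adjusted p = 0.245) and on leaving out any of 16 of the 19 aged libraries. It was retained with sex as a covariate (−0.46, adjusted p = 0.0467). Of the markers of other cell types, 5 of 6 of ciliated cells rose and 2 of 5 of fibroblasts fell with Dex, and 10 of 13 of heart muscle were higher at an unadjusted p under 0.05. Their part in the value of Cox7a2 was not tested.

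The 9 genes that rose after HDM did not pass in HDM + Dex vs. HDM or in HDM + Dex vs. saline. Both comparisons share libraries with HDM vs. saline, so their values are given side by side only. Sdhc had 34.3 to 65.1 rescaled CPM after HDM + Dex, with a log2 fold change of −0.15 against HDM (95% interval −0.46 to 0.15) and 0.49 against saline (adjusted p = 0.13). Uqcrh had 30.6 to 45.5 after HDM + Dex, with −0.28 against HDM (adjusted p = 0.103) and 0.15 against saline (adjusted p = 0.476). Cox5b had 38.9 to 80.0, with −0.33 against HDM (adjusted p = 0.325) and 0.40 against saline (adjusted p = 0.315). The HDM + Dex libraries were spread widely in each of these genes, and the highest Sdhc and Cox5b values were those of replicate 6, with a 7SL share over 25%. In HDM + Dex vs. saline, 0 of the 93 genes passed the limma test, and 0.518% and 0.445% of all genes rose and fell. At an unadjusted p under 0.05, 6 were higher and 0 lower, beside 8.14% and 7.69% of all genes. The median log2 fold change of the 93 genes was −0.08 against HDM and 0.05 against saline, and on the deposited CPM −0.05 and −0.14.

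Aged vs. adult compared the naïve groups. None of the 93 genes passed the limma test, beside 0.659% of all genes that rose and 0.417% that fell. At an unadjusted p under 0.05, 2 were higher and 5 were lower, beside 7.84% and 5.98% of all genes. The median was −0.09 over the 93 genes and 0.02 over all genes, and it was 0.09 and 0.19 on the deposited CPM. By library, the median log2 difference of the 93 genes from the naïve aged mean was 0.11, −0.01, −0.05, 0.03 and 0.35 in adult replicates 1 to 5. Naïve aged libraries lay between −0.03 and 0.04. Adult replicate 1 had a 7SL share of 42.0%, and replicate 5 had 546 rescaled CPM of skeletal muscle markers. Group and sex could be told apart only in part, since all 5 adult mice had the female pattern.

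The paralogs of complex IV had the largest negative values of that comparison. Cox4i2, on chromosome 2 from 152754173 to 152765038, had 26.8, 20.9, 21.8, 20.9 and 24.2 rescaled CPM in the adult and 14.1, 15.98, 13.3, 18.9 and 14.5 in the naïve aged libraries. It was the only one of the 93 genes in which the aged libraries lay below the adult ones without overlap, beside 1.48% of all genes. Its log2 fold change was −0.55 (SE 0.12, 95% interval −0.82 to −0.28) and missed the threshold at an adjusted p of 0.0527. It passed under 4 other settings, among them sample weights (adjusted p = 0.018), and had an adjusted p of 0.222 with sex as a covariate and of 0.461 on the deposited CPM. Its ubiquitous partner Cox4i1 had 79.2 ± 8.84 rescaled CPM in adult and 77.4 ± 4.74 in naïve aged libraries (SD, n = 5 each; log2 fold change −0.03). Per length, the share of Cox4i2 in the sum of the pair was 21.96% ± 0.702 in adult and 16.1% ± 1.45 in naïve aged libraries. After HDM it was 12.7% ± 3.43, and after HDM + Dex 16.3% ± 4.02. The HDM and HDM + Dex ranges of this share, 9.55% to 18.9% and 9.73% to 21.6%, covered that of the naïve aged libraries.

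Ndufa4l2 showed values of the same sign as Cox4i2. It had 8.44, 5.70, 6.84, 6.21 and 4.38 rescaled CPM in adult and 2.92, 5.04, 4.07, 2.73 and 4.14 in naïve aged libraries, where 1 adult library lay below the highest aged one (log2 fold change −0.61, SE 0.19, adjusted p = 0.153). Its partner Ndufa4 had 15.9 ± 6.42 and 15.4 ± 1.65 (SD, n = 5 each). Ndufa4l2 overlaps Shmt2 in the annotation. Cox6b2, the testis form of subunit 6b, had 2.03 ± 0.345 in adult and 1.27 ± 0.277 in naïve aged libraries (log2 fold change −0.42, adjusted p = 0.24), and Cox6b1 had 17.1 ± 2.75 and 16.6 ± 1.61. The genes most like Cox4i2 in log2 level over the 24 libraries were Mylk, the myosin light chain kinase of smooth muscle, with Pearson's r of 0.922, and Hif1an and Stard8, with 0.893 and 0.889. Those most like Ndufa4l2 were Tpcn1 (0.885), Ptk7 (0.856) and Sipa1l2 (0.853). The libraries also differ in 7SL share, sex pattern and cell markers, and these correlations are descriptions. Markers of pericytes and smooth muscle, the cells in which both genes are known to be high, summed to 592 to 870 rescaled CPM in adult and 416 to 538 in naïve aged libraries (exact permutation test, adjusted p = 0.0339), with 2 of 6 markers lower and 0 higher by the limma test, and 0 of 6 lower on the deposited CPM. At the same adjusted p, fibroblast markers were lower in naïve aged libraries (means of 737 and 1354 rescaled CPM), and markers of neutrophils (127 and 31.4) and of B and plasma cells (329.8 and 32.6) were higher. The part of these markers in the values of Cox4i2 and Ndufa4l2 was not tested.

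**Figure D5:**
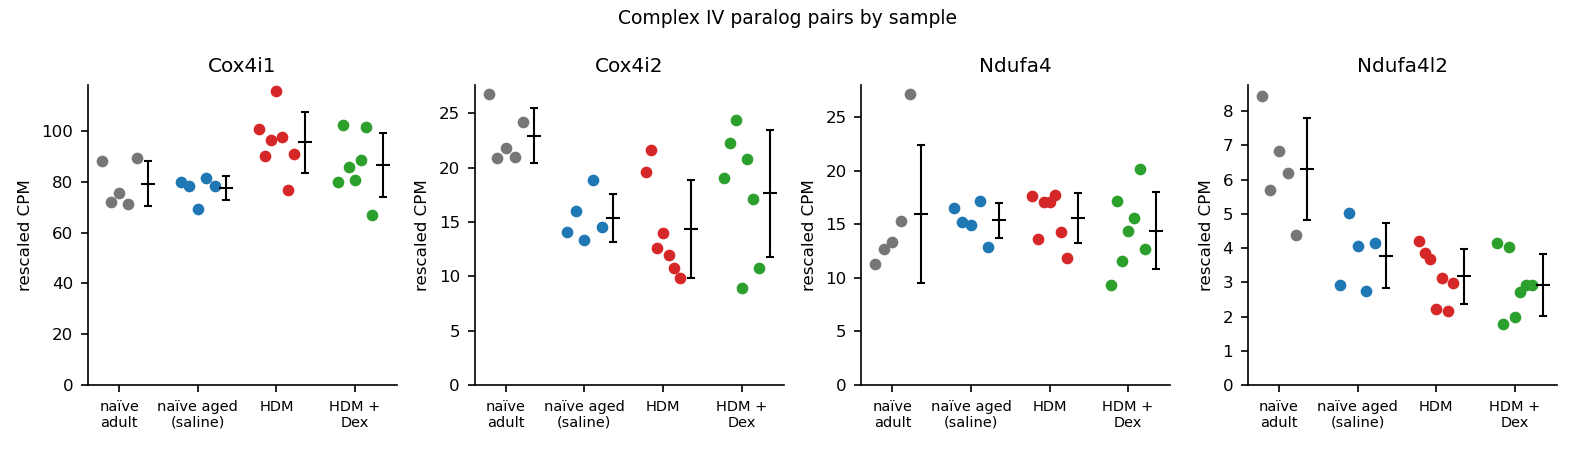
Rescaled CPM of Cox4i1, Cox4i2, Ndufa4 and Ndufa4l2 by library in the 4 groups, with mean ± SD beside the points. Cox4i2 lies at 20.9 to 26.8 in naïve adult and 13.3 to 18.9 in naïve aged libraries, while Cox4i1 overlaps between these groups.

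The remaining paralog sets did not pass a test. Atp5g3 had 21.1 ± 2.86, 19.6 ± 1.83, 21.1 ± 3.86 and 20.96 ± 3.07 rescaled CPM in the adult, saline, HDM and HDM + Dex groups. Atp5g1 had 4.24 ± 1.35, 4.03 ± 0.725, 3.31 ± 0.647 and 3.63 ± 1.48 in the same order. Cox7b had 29.1 ± 2.36 in saline and 33.1 ± 9.89 after HDM (log2 fold change 0.12, adjusted p = 0.763), and Ndufb4 had 5.39 ± 1.12 and 5.19 ± 0.949.

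Reads of many of these genes could also belong to other genes. Of the 94 genes, 52 share at least one 50-base window with the transcripts of other genes, 34 of them with an annotated pseudogene, and 30 share 10% or more of their windows. For 18 genes such copies are rows of the table, and for 4 of them the copies together had a higher level than the gene. Atp5g2 had 0.760 rescaled CPM on average while its copy Gm10175 had 14.3, and Ndufb4 had 5.66 beside 18.5 for 2 copies. The third was Atp5g1, given above. Atp5h, the d subunit of the peripheral stalk of complex V, had 79.0 beside 105 for 2 copies. Atp5h together with its copy Gm10250 had 150 ± 26.3 rescaled CPM in saline and 215 ± 53.8 after HDM, while Atp5h alone had 58.3 ± 21.1 and 90.2 ± 41.6 (log2 fold change 0.53, adjusted p = 0.284). Levels of such genes are therefore uncertain. Sdhc, Uqcrfs1, Cox8a, Cox4i2 and Atp5e shared under 1% of their windows. Of the other genes that rose after HDM, Uqcrh shared 7.83%, Cox7a2l 17.7%, Cox5b 25.9%, Ndufa13 28.5% and Cox5b-ps 61.9%. Ndufs3 shared 39.7%. Only exact matches to annotated transcripts were sought, so reads from other sequence are not excluded for any of them.

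Other genes of energy metabolism were read from lists. Their values are given without the 7SL and heart muscle covariates. In HDM vs. saline, 660 genes of the table rose and 529 fell with the 7SL covariate, and 21 rose and 3 fell with the heart muscle covariate. Of the 13 genes of the mitochondrial genome, which encode the partner subunits of complexes I, III, IV and V, 7 fell and 0 rose after HDM, with a median log2 fold change of −0.62. The 13 genes summed to 5914 to 13816 rescaled CPM in saline (median 6625) and 4359 to 7526 after HDM (median 5392), so the ranges overlapped. mt-Nd2 fell most (−1.16, adjusted p = 0.00125), from 547 ± 260 to 226 ± 25.2 rescaled CPM, and mt-Cytb fell by 0.86 on the log2 scale (adjusted p = 0.0159). In HDM + Dex vs. HDM 3 of the 13 rose, mt-Co2 by 0.90 (adjusted p = 0.0248) and mt-Nd2 by 0.83 (adjusted p = 0.0281). On the deposited CPM 11 fell after HDM and 3 rose with Dex. These genes thus had a median below that of all genes, while that of the nuclear genes lay above it, and a difference between the lists was not tested.

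Of 11 regulators of mitochondrial biogenesis, 3 rose and 1 fell after HDM. Ppargc1a, the coactivator PGC-1α, fell from 11.2 ± 2.0 to 5.34 ± 1.89 rescaled CPM (log2 fold change −0.99, adjusted p = 0.00506). Ppargc1b, the related coactivator PGC-1β, rose from 4.79 ± 0.416 to 10.7 ± 2.92 (0.98, adjusted p = 0.000736), and Esrra, the nuclear receptor ERRα with which both act, rose from 8.33 ± 1.97 to 16.2 ± 3.84 (0.88, adjusted p = 0.00178). All 3 passed with the same sign on the deposited CPM. Nrf1, Gabpa and Yy1, whose sites are printed above, had −0.08, −0.18 and 0.08 and did not pass, while on the deposited CPM Gabpa, a subunit of GABP, fell (−0.42, adjusted p = 0.0231).

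Of 15 glycolytic genes, 7 rose and 0 fell, led by Eno1 (0.71, adjusted p = 0.00937) and Pgam1 (0.62, adjusted p = 0.00259), and Eno1 fell with Dex (−0.66, adjusted p = 0.0381). On the deposited CPM none of the 15 passed in these comparisons. Of 13 genes of the citric acid cycle 3 fell, led by Sucla2 (−0.51, adjusted p = 0.00456) and Idh3a (−0.40, adjusted p = 0.00525), and of 10 genes of fatty acid oxidation Acadm fell (−0.36, adjusted p = 0.00759). Of 27 other assembly factors tested, Pet100 (0.61, adjusted p = 0.00727) and Cox15 (0.41, adjusted p = 0.00919), both for complex IV, rose and Ttc19, for complex III, fell (−0.26, adjusted p = 0.0438). Of 12 genes of the mitochondrial membranes and protein import 3 rose, led by Tomm22 and Tomm40, subunits of the outer membrane translocase (0.59 and 0.42, adjusted p = 0.00988 and 0.0413). None of the 4 electron carrier genes, Cycs for cytochrome c among them, passed.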

How the data were processed

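RNA-Seq was performed on lung of 24 mice. The authors prepared strand-specific mRNA libraries for paired-end sequencing and ran a Picard-STAR-limma pipeline. 7SL RNA, which is not an mRNA, nevertheless took 9.92% to 42.0% of the deposited CPM. The reason for this was not tested, and RNA quality per library was not at hand. The deposited values, named normalized counts, were taken as CPM, each raised by 0.0001. The handling of strand and of reads with several positions was not given in the sources used here. The submitters' notes name FastQC, STAR and DESeq2. They also name mm9, but gene starts matched GENCODE of GRCm38 for 23140 of 23276 symbols found, and coordinates are those of the table on that build. Of low CPM (under 20 spacings), 81.1% to 85.8% per sample were within 0.05 of a whole multiple of the spacing taken as 1 read. Reads were therefore not recovered, and count tests were not run. Depths estimated from that spacing put 3 reads at 0.0908 to 0.299 CPM and cover counting error only.

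CPM were divided by median-of-ratios factors over the 13726 genes with at least 1 CPM in every sample. The 17744 genes whose deposited CPM averaged 1 or more entered limma 3.58.1 (R 4.3.3) as log2(rescaled CPM + 1). eBayes was used with its trend option, and p-values were adjusted over all genes (Benjamini-Hochberg, threshold 0.05). The 19 aged samples formed one fit and the 10 naïve samples another. The step was tested on simulated data. For single measures of samples, exact permutation tests were two-sided (scipy 1.17.1, Python 3.11.15). Exonic lengths, overlaps and shared windows came from GENCODE and promoters from RefSeq.

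The members, gene lists, tests and alternatives were chosen with earlier results of these data known. The genes named were, per comparison and complex, up to 3 higher and 3 lower of those that passed, fixed core subunits and paralog sets, the left-out heart forms, genes below the filter, the extremes of level, and up to 2 higher and 2 lower per list, with the genes most alike for paralogs that differed. Ndufs3, Ndufb2, Atp5h and the genes most like Sdhc were named after their values were seen. Replicate numbers did not pair the samples. The alternatives were other scalings, pseudocounts (0.1 and 5) and filters (none and 5 CPM), other groups in the fit, no trend, sample weights, a replicate block, covariates and leaving out each sample.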

Additional observations from a re-analysis of the deposited data

Results flagged for a closer look

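Gaps between a sample and the rest of its group were checked in 76 sets of samples (summed complexes and named genes by group), of which chance flags about 1 in 20, and 5 were flagged. The summed level of complex V was 1166 rescaled CPM in naïve adult replicate 5, and the nearest other naïve adult library had 857. Ndufa13 was also highest in that library, with 39.5 rescaled CPM and the next library at 32.2. This is the library with 546 rescaled CPM of skeletal muscle markers. In naïve adult replicate 1, which had a 7SL share of 42.0%, Cox5b had 64.1 and Cox7a2l had 89.0 rescaled CPM, and the nearest naïve adult libraries had 48.7 and 60.1. Cox5b-ps had 53.0 rescaled CPM in HDM replicate 3, the library with the fewest estimated reads and a 7SL share of 34.0%, and the nearest HDM library had 31.6. The part of muscle, depth and 7SL in these values was not tested. Without these 3 libraries 7 of the 9 genes passed in HDM vs. saline, and Atp5e (adjusted p = 0.104) and Uqcrfs1 (adjusted p = 0.0728) did not. In that fit 1482 of all genes rose and 1721 fell. Cox7a2 then had an adjusted p of 0.0735 in HDM + Dex vs. HDM.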

How the results depend on the processing

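For HDM vs. saline, the 9 genes became 4 on the deposited CPM (3 higher, 1 lower) and 17 with sample weights (16 higher, 1 lower). Over all genes 717 rose and 3765 fell on the deposited CPM, and 2556 and 2804 with sample weights. The main fit had 1896 and 2102. The 9 became 0 with the heart muscle covariate, where 21 of all genes rose and 3 fell. They also became 0 with the 7SL covariate, where 660 of all genes rose and 529 fell. Leaving out 1 sample gave 6 to 16 (16 without HDM replicate 2, where 2266 of all genes rose and 2501 fell). Among libraries with a 7SL share under 25% it was 1, where 713 of all genes rose and 506 fell. For HDM + Dex vs. HDM, the 1 gene became 0 on the deposited CPM, with upper-quartile scaling, with a pseudocount of 0.1, without a filter, with only these groups or all 24 samples in the fit, with the replicate block, with the heart muscle covariate, without the 3 libraries that stand apart, and among libraries with a 7SL share under or over 25%. On leaving out 1 sample it was 0 to 1, and without HDM replicate 6 the gene was Cox7a2l. Over all genes 358 rose and 134 fell in the main fit, and 133 and 38 on the deposited CPM. Without HDM replicate 6 it was 479 and 234. For HDM + Dex vs. saline, 0 became 2 with sample weights, 1 with the sex covariate (Sdhc) and 0 to 1 on leaving out 1 sample (1 without HDM + Dex replicate 7). Over all genes 92 rose and 79 fell in the main fit, and 502 and 442 with sample weights. The sex covariate gave 236 and 188, and leaving out HDM + Dex replicate 7 gave 187 and 127. For aged vs. adult, 0 became 1 with upper-quartile scaling, 1 with a pseudocount of 0.1, 2 with sample weights and 0 to 1 on leaving out 1 sample (1 without naïve aged replicate 4), in each case with Cox4i2. Over all genes 117 rose and 74 fell in the main fit, and 363 and 328 with sample weights. Upper-quartile scaling gave 128 and 75, and the pseudocount of 0.1 gave 137 and 78. Without naïve aged replicate 4 it was 64 and 37. The other alternatives kept each count within 1.5 times, and no gene that passed turned its direction. The causes were not tested beyond the covariates named. Libraries selected by 7SL share or set apart, and the sex covariate, were chosen after seeing the data.

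The labels give the groups the same replicate numbers, but same-numbered samples did not deviate together (correlations from −0.234 to 0.401). With the replicate block 8 genes passed in HDM vs. saline, 7 of them among the 9, and 0 in each of the other comparisons. Over all genes the block gave 1524 higher and 1658 lower in HDM vs. saline, 1896 and 2102 without it, and in HDM + Dex vs. HDM 119 and 33, 358 and 134 without it. With an estimated 10.03 to 33.03 M reads, genes near 1 CPM such as Atp5g2 rest on few reads.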
